A study of Rattus norvegicus with 24 samples.

Results

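The genes described here encode the protein machinery of mitochondrial respiration: the subunits of complexes I to IV, the electron carrier cytochrome c and its partner cytochrome c1, and the subunits of ATP synthase, which is also called complex V. They were chosen by gene symbol: symbols of the Nduf, Sdh, Uqcr, Cox4 to Cox8 and Atp5 families, together with Cyc1 and Cycs. Earlier results of these data were known when the choice was made. Where several array probe sets stood for a gene, the one with the highest mean was taken. The rule found 91 of the 17245 genes measured. Of these, 39 belong to complex I, 4 to complex II, 9 to complex III, 18 to complex IV and 20 to complex V, and 1 is Cycs. Within the 91 are 77 subunits, 6 copies of subunit genes, 5 pseudogene symbols, and 2 genes that regulate rather than form a complex, the ATP synthase inhibitor gene Atp5if1 and the supercomplex factor gene Cox7a2l. Ndufa4 was counted with complex IV, where its protein sits.

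Liver RNA was hybridised to whole-transcript arrays, 1 array for each of 24 male Wistar rats. The diets held 5% protein (low) or 20% protein (normal) and were eaten for 1 week or for 4 weeks, so that there were 4 groups of 6 rats. These figures come from the sample titles; the description codes carry 4 and 18 where the titles have 5 and 20, and the design text mentions 4 weeks alone. The age of the rats and the rest of the diets are not given in the sources used here, and the fenofibrate treatment named in the series title was not analysed here. Bulk liver RNA mixes cell types, so fewer cells of a type and less RNA per cell cannot be told apart.

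The respiratory chain moves electrons from NADH, at complex I, and from succinate, at complex II, through coenzyme Q to complex III, then by cytochrome c to complex IV, where oxygen is reduced. Complexes I, III and IV pump protons across the inner mitochondrial membrane, and ATP synthase uses the resulting gradient to make ATP. Liver depends on this machinery for gluconeogenesis, urea synthesis and fatty acid oxidation. A few subunits are encoded by mitochondrial DNA. None of those was found here by symbol, so all 91 genes are nuclear.

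Many nuclear respiratory genes are known to carry binding motifs of NRF1 (nuclear respiratory factor 1) and of ETS-type factors such as GABP. In a RefSeq promoter table (build GRCr8, 250 bases before to 50 after each start), 76 of the 91 genes had an entry. The NRF1 motif, searched as GCGCANGCG on both strands, was in 18 of these 76 (23.7%) and in 1940 of all 33469 promoters (5.8%). The ETS-type motif CCGGAAG was in 20 (26.3%) and in 2927 of all promoters (8.75%). At least 1 of the motifs was in 35 of 76 (46.1%) and in 13.4% of all promoters, and both were in 3 (3.95%) and in 1.18% of all. By complex, the NRF1 letters were found in 8 of 33 promoters of complex I, 6 of 18 of complex V, 1 of 14 of complex IV, 1 of 6 of complex III, 1 of 4 of complex II and in that of Cycs. These are matches of letters and not measured binding, and the base composition of the promoters was not matched. The members counted 1 promoter per gene, whereas all promoters of the table were counted without a limit per gene or by gene type. The shares are thus not of like sets.

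The stretches below can be read beside the response. They come from some of the promoters with a match among the genes whose values are given in full. Those of Sdhd and Ndufs1, which had ETS-type matches before the start, are not printed. Cycs lies on the reverse strand (chr4:80984881-80984960), as do Ndufa1 (chrX:121293683-121293762) and Atp5po (chr11:44657498-44657577). Cox7a2l (chr6:16936494-16936573), Ndufv3 (chr20:9613706-9613785) and Ndufa12 (chr7:30658170-30658249) lie on the forward strand. Capitals mark the NRF1 motif, or its reverse complement, in Cycs, Cox7a2l, Ndufv3, Atp5po and Ndufa12, and the reverse complement of the ETS-type motif in Ndufa1. In Atp5po overlapping matches on both strands make a longer run of capitals.
Cycs: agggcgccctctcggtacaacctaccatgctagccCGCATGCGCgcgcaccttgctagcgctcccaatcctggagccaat
Cox7a2l: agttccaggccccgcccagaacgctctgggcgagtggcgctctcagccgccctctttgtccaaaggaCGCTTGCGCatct
Ndufv3: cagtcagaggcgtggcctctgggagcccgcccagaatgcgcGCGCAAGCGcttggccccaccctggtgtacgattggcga
Ndufa1: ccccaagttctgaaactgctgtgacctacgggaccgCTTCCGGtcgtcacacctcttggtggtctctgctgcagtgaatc
Atp5po: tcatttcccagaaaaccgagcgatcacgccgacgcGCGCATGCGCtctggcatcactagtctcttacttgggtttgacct
Ndufa12: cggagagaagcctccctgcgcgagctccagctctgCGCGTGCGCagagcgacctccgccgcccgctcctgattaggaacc

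Values are log2 of the deposited intensity, and a difference is 5% minus 20% protein on that scale unless another contrast is named. A gene was called, and is said to have risen or fallen, at a limma adjusted p below 0.05 over all 17245 genes. Errors are standard errors, or SD where marked, with n = 6 rats per group. Array medians lay between 42.4 and 45.5, and arrays of 1 group correlated at 0.984 to 0.995. Of 6 hepatocyte markers 5 were measured, all near the top of the intensity range, with a median at the 100th percentile of all genes. The members spread widely over that range: 11 lay among the 33.3% of genes with the lowest means, including all 6 copies and the subunit genes Cox4i2, Cox8b, Cox8c and Ndufb4. The titles number the rats, and those numbers form 4 runs, which no label calls a batch. Rats 49 to 54 and 74 to 79 made up the 1 week groups, with 3 of each diet in each run. At 4 weeks, rats 22 to 32 held 5 on 5% and 2 on 20% protein, and rats 59 to 73 held 1 and 4. At 1 week no row of the sample plate held both diets, so plate row and diet cannot be told apart there.

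After 1 week, over all 12 rats, few respiratory genes differed between 5% and 20% protein. Within the runs of rats they did differ, in opposite directions. Among rats 49 to 54, 15 genes were higher on 5% and the median was 0.15, beside 7.57% of all genes called. Among rats 74 to 79, 12 were lower and the median was -0.21, beside 8.49%. Over both runs 1 of the 91 genes rose and 1 fell, beside 4.3% of all genes called, 1.86% higher and 2.44% lower. Their median difference was -0.01, and that of all genes was -0.01. The interval of the difference lay within 0.5 log2 of 0 for 74 of the 91 genes, as for 78.3% of all genes, and for the other 17 it reached further. The called genes were Cox6c, a subunit of complex IV, and Cox7a2l, the supercomplex factor gene that was counted with complex IV.

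Cox6c, a small nuclear subunit of complex IV, was lower on 5% protein. At 1 week its values on 20% ran from 12.48 through a median of 12.59 to 12.75, and on 5% from 12.02 through 12.30 to 12.46. The groups did not overlap. It fell by 0.32 ± 0.09 (limma adjusted p = 0.0313), by -0.23 among rats 49 to 54 and -0.42 among rats 74 to 79. Its promoter is not among those shown.

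Cox7a2l, whose protein helps join complexes III and IV into supercomplexes, was higher. On 20% its values ran from 10.39 through 10.80 to 11.05, and on 5% from 11.06 through 11.23 to 11.43, again without overlap. It rose by 0.49 ± 0.13, a 1.4-fold change (limma adjusted p = 0.0351), with 0.63 among rats 49 to 54 and 0.34 among rats 74 to 79. Diets did not overlap at 1 week in 2.56% of all genes, 1.2% with 5% higher and 1.36% with 5% lower. The call of each gene was lost when any of 6 single rats was left out. For Cox6c these were 5% rats 54, 74 and 76 and 20% rats 77, 78 and 79 (adjusted p 0.0501 to 0.099), and for Cox7a2l 5% rats 49, 50 and 74 and 20% rats 51, 52 and 79 (0.0592 to 0.0986). With plate row as a random block neither passed (0.0787 and 0.104).

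The other complexes held members at both ends of the range without a call at 1 week. In complex I the extremes were Ndufb2 (0.46 ± 0.19) and Ndufb6 (-0.32 ± 0.18), both accessory subunits of the membrane arm. In complex II they were Sdhb, the iron-sulfur subunit (0.22 ± 0.17), and Sdhc, a membrane anchor (-0.19 ± 0.10). Those of complex III were Uqcrfs1, which carries the Rieske iron-sulfur cluster (0.39 ± 0.21), and the hinge protein gene Uqcrh (-0.33 ± 0.11, limma adjusted p = 0.0973). In complex V they were the membrane-part genes Atp5mg (0.33 ± 0.16) and Atp5mc2 (-0.19 ± 0.09). Cycs differed by 0.20 ± 0.07 (adjusted p = 0.0929). In a fit by probe set the one used gave 0.20 (limma adjusted p = 0.0859). The others gave 0.20, which passed narrowly (0.0487), and 0.23 (0.108).

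Erythroid markers moved with diet at 1 week: 3 of 5 measured fell, and their summed intensity was 1413 to 6430 on 5% and 5218 to 11540 on 20% protein. Of the 6 Kupffer cell and macrophage markers 0 were called by limma at 1 week, with sums of 3226 to 5391 and 4084 to 5725. The part of either in the values above was not tested.

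After 4 weeks 13 of the 91 genes differed between diets, 7 higher and 6 lower on 5% protein (14.3%), beside 25.8% of all genes, 13.4% higher and 12.4% lower. The share of members called was thus below the background. The median of the 91 was 0.01 and that of all genes -0.01, and 70 of 91 intervals lay within 0.5 log2 of 0, as did those of 66.7% of all genes. By complex, 3 rose and 3 fell of 39 in complex I, 0 of 4 were called in complex II, 1 of 9 rose in complex III, 1 rose and 2 fell of 18 in complex IV, and 1 rose and 1 fell of 20 in complex V. Cycs also rose. No complex moved as a block, and the called members of complexes I, IV and V went both ways.

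**Figure D1:**
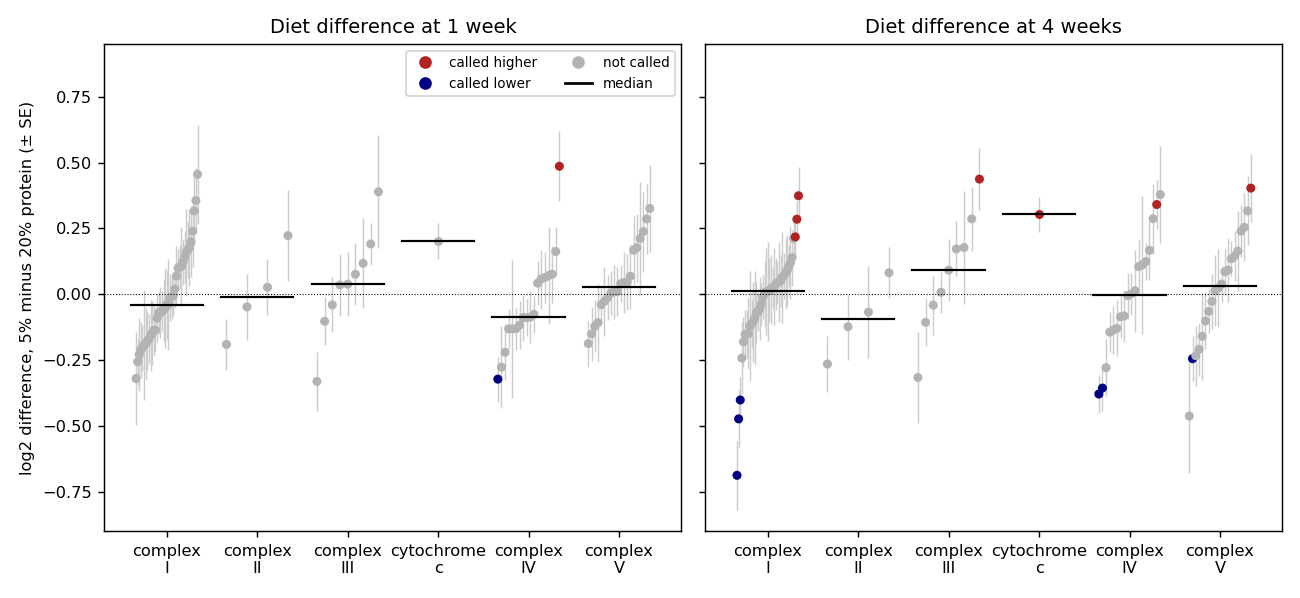
Log2 difference between 5% and 20% protein for each of the 91 genes (points, with SE bars) by complex, at 1 week on the left and at 4 weeks on the right. Black lines are the medians of the complexes; 2 genes were called at 1 week and 13 at 4 weeks, on both sides of 0.

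The electron carriers and some core parts of the chain were among the genes that rose. Cycs encodes the mobile carrier between complexes III and IV. At 4 weeks its values on 20% protein ran from 11.04 through 11.39 to 11.46, and on 5% from 11.58 through 11.67 to 11.69. All 6 rats on 5% lay above all 6 on 20%, and the 5% group was tight (SD 0.0432) where the 20% group was drawn down by rat 29, the lowest. Cycs rose by 0.30 ± 0.07, a 1.23-fold change (limma adjusted p = 0.00158). The difference was 0.40 among rats 22 to 32 and 0.29 among rats 59 to 73. Its 3 probe sets gave 0.29, 0.30 and 0.33.

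Cyc1, the cytochrome c1 of complex III that hands electrons to cytochrome c, showed a similar separation. On 20% protein it ran from 10.58 through 10.66 to 10.73, and on 5% from 10.93 through 11.11 to 11.27, with no overlap. It rose by 0.44 ± 0.12 (adjusted p = 0.00699 by limma), with 0.45 and 0.58 in the earlier and later run of rats. Its call held in all 38 alternative analyses, as did that of Ndufa1 below.

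Ndufs1 is the largest core subunit of complex I and holds several of its iron-sulfur clusters. Values on 20% ran from 9.78 through 9.92 to 10.04, and on 5% from 10.20 through 10.30 to 10.36. The groups did not overlap, and the gene rose by 0.37 ± 0.11 (limma adjusted p = 0.0121). Of the 6 core complex I subunit genes measured it was the only one called at 4 weeks. The median of the 6 was 0.10 and that of the 26 accessory subunit genes 0.01.

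Cox4i1, the common isoform of a regulatory subunit of complex IV, rose by 0.34 ± 0.09 (adjusted p = 0.007), from a mean of 11.08 to 11.42. Rat 23 was the only one on 5% inside the range of the 20% group. Ndufb7, an accessory subunit of the complex I membrane arm, rose by 0.28 ± 0.07. Atp5if1, the protein that blocks ATP hydrolysis by ATP synthase when the proton gradient collapses, rose by 0.40 ± 0.13 (limma adjusted p = 0.021). Without 5% rat 23 or 5% rat 32 its adjusted p was 0.0651 or 0.0589. Ndufb11b, a copy of a complex I subunit gene, rose by 0.22 ± 0.08 at a low intensity (mean 4.42 on 20% and 4.64 on 5%). It passed narrowly (adjusted p = 0.0439), and the call was lost without any of 8 rats (5% rats 75 of the 1 week group and 23, 26, 31 and 32 of the 4 week group, and 20% rats 29, 30 and 73, with adjusted p 0.0502 to 0.119).

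The genes that fell were all small accessory or membrane-part subunits. Ndufa1, a short subunit of the complex I membrane arm, had the largest difference of the set. On 20% protein at 4 weeks its values ran from 7.98 through 8.38 to 8.60, and on 5% from 7.43 through 7.69 to 7.95. All 6 rats on 5% lay below all 6 on 20%. It fell by 0.69 ± 0.13, to 0.621-fold (limma adjusted p = 0.000315), with -0.42 among rats 22 to 32 and -1.04 among rats 59 to 73.

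Ndufc1, another small accessory subunit of complex I, ran from 9.78 through 9.92 to 10.17 on 20% and from 9.48 through 9.54 to 9.65 on 5%, without overlap. It fell by 0.40 ± 0.09 (adjusted p = 0.00114 by limma). Ndufa4, first assigned to complex I and now known as a subunit of complex IV, ran from 12.16 through 12.34 to 12.45 on 20% and from 11.73 through 11.97 to 12 on 5%. These did not overlap either, and the gene fell by 0.38 ± 0.07 (adjusted p = 0.000287). Within runs the differences were -0.27 and -0.41 for Ndufc1 and -0.24 and -0.40 for Ndufa4. Of the 91 genes 7 had diets that did not overlap at 4 weeks, 4 with 5% higher and 3 with 5% lower, beside 12.4% of all genes, 6.55% higher and 5.88% lower.

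Cox6c was called at both times. At 4 weeks it ran from 12.29 through 12.53 to 12.67 on 20% and from 11.97 through 12.17 to 12.37 on 5%, a narrow overlap. It fell by 0.36 ± 0.09 (limma adjusted p = 0.00287). The difference was -0.35 among rats 22 to 32 and -0.19 among rats 59 to 73. Cox7a2l, the other gene called at 1 week, differed by 0.29 ± 0.13 at 4 weeks (0.51 and 0.08 in these runs) and was not called.

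Ndufv3, an accessory subunit beside the NADH-binding flavoprotein, ran from 11.18 through 11.57 to 11.81 on 20% and from 10.98 through 11.08 to 11.19 on 5%. It fell by 0.47 ± 0.11 (adjusted p = 0.00205), while its other, dimmer probe set gave -0.13 and did not pass (adjusted p = 0.311). These groups overlapped only at their edges. The 5% rats were close together (SD 0.0793) and the 20% rats were spread (SD 0.231). Atp5mf, subunit f of the ATP synthase membrane part, fell by 0.24 ± 0.09 (adjusted p = 0.0356). This call was lost with array medians centred (0.0719), with plate row as a random block (0.0596), and without any of 6 rats (5% rats 23, 32 and 59 and 20% rats 67, 72 and 73, with 0.0586 to 0.0915).

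**Figure D2:**
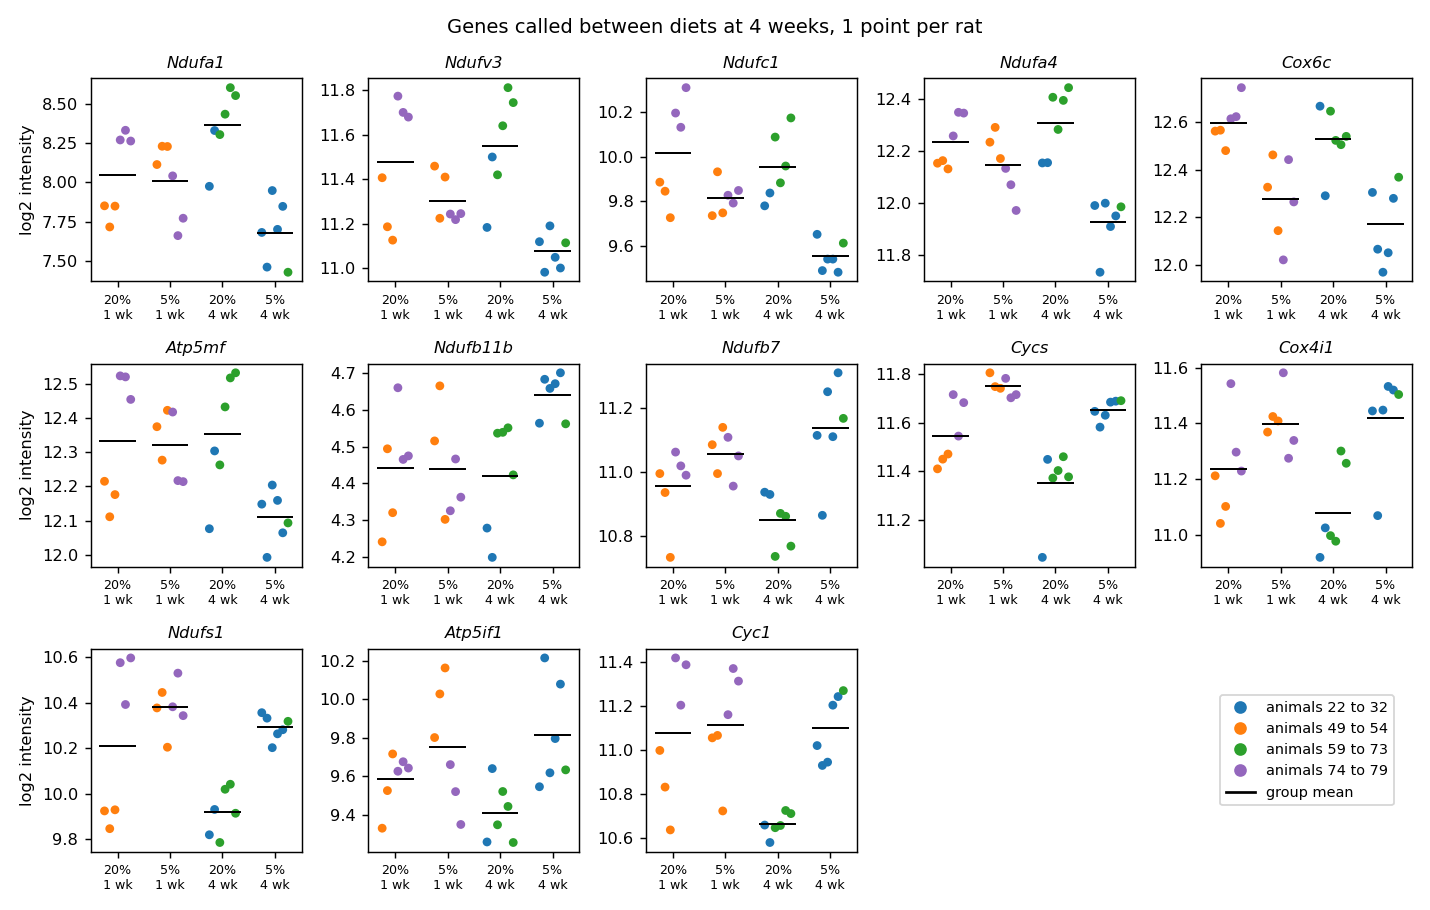
Log2 intensity of the 13 genes called between diets at 4 weeks, 1 point per rat in each of the 4 groups, coloured by run of animal numbers, with the group mean as a line. Ndufa1, Ndufc1, Ndufa4, Cycs, Cyc1, Ndufs1 and Ndufb11b show 4 week groups that do not overlap, and the 20% rats at 1 week often part by colour.

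Tissue isoforms gave no common pattern. Forms of complex IV subunits restricted to certain tissues differed at 4 weeks by 0.38 ± 0.18 (Cox6a2, the heart and muscle form), 0.11 ± 0.26 (Cox8b, likewise), 0.01 ± 0.16 (Cox4i2, the lung form) -0.14 ± 0.09 (Cox8c) and -0.28 ± 0.11 (Cox6b2, the testis form), none called. Of the common counterparts Cox4i1 rose, as given above, and Cox6a1 (0.00 ± 0.08), Cox8a (0.12 ± 0.07) and Cox6b1 (-0.14 ± 0.08) were not called. Cox6b2 passed under 7 alternatives, among them the run of rats as a covariate (adjusted p = 0.0434). The genes for the c ring of ATP synthase, whose mature proteins are identical, differed by 0.32 ± 0.13 (Atp5mc1), 0.09 ± 0.09 (Atp5mc2) and -0.21 ± 0.10 (Atp5mc3), again without a call. Heart and skeletal muscle markers were at 150.7 to 168.5 in summed intensity on 5% and at 152.5 to 370.5 on 20% at 4 weeks, with 0 of 7 called by limma.

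Other extremes at 4 weeks were not called: Atp5me of complex V (-0.46 ± 0.21, adjusted p = 0.122), Uqcr10 of complex III (-0.32 ± 0.17), and Sdha, the flavoprotein of complex II (-0.26 ± 0.11, adjusted p = 0.0689). Sdhc (0.08 ± 0.10) was the highest of complex II. Without 20% rat 29, Atp5me (adjusted p = 0.0238) and Sdha (0.0301) passed.

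The diets were unevenly spread over the runs at 4 weeks. With run as a covariate 9 members were called higher and 6 lower, and 11 of the 13 remained; Atp5if1 (0.34, adjusted p = 0.101) and Atp5mf (-0.17, adjusted p = 0.209) were lost. Among rats 22 to 32 alone 7 were higher and 1 lower, beside 15.9% of all genes called (8.32% higher, 7.54% lower). Among rats 59 to 73 alone 1 was higher and 4 lower, beside 12.3% (6.83% higher, 5.49% lower). The later run held 1 rat on 5% protein, whose spread was taken to equal that of the other rats. The diet effect differed between these runs in 0 members by limma (0.029% of all genes), with an unadjusted p below 0.05 in 13 (10.7% of all genes). Kupffer cell and macrophage markers fell in 5 of 6 at 4 weeks, with sums of 2330 to 3008 on 5% and 3338 to 5687 on 20%. Of the hepatocyte markers 2 of 5 fell, and erythroid sums were 641.1 to 4990 against 2859 to 9315 (2 of 5 fell). Among cholangiocyte markers 2 of 4 rose, Sox9 (0.659) and Epcam (1.55), with sums of 268.8 to 658.5 against 227.2 to 342.1. Krt19 (-0.519) and Krt7 (-0.0175) were lower on 5% without a call. Stellate and endothelial markers fell in 1 of 5 and 1 of 3, and of 4 T and B cell and 4 adipocyte markers 0 were called. Their part in the differences of the respiratory genes was not tested.

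Proteins that assemble the complexes, and that do not stay in them, were measured beside the subunits. The list named 52 such genes and 38 were measured. At 4 weeks 15 of the 38 rose and 0 fell (39.5%), where 13.4% of all genes rose, and their median was 0.22. Of the 77 subunit genes and Cycs 5 rose and 6 fell, with a median of 0.01. The difference between these lists was not tested. At 1 week 1 assembly gene rose, Lrpprc, beside 1.86% of all genes.

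Of the 3 assembly genes of complex III measured, 2 rose. Bcs1l, which inserts the Rieske protein into complex III, rose by 0.85 ± 0.12 (limma adjusted p = 9.04e-06), and Lyrm7, a chaperone of the same protein, by 0.64 ± 0.14 (0.000854). The Rieske gene itself, Uqcrfs1, was not called. For complex IV, 5 of 15 rose, those with the smallest p being Lrpprc, which stabilises mitochondrial messenger RNA (0.67 ± 0.07, adjusted p = 1.19e-07; 0.37 ± 0.07 at 1 week), Cox15 of heme a synthesis (0.41 ± 0.09) and Coa3 (0.39 ± 0.09).

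For complex I 7 of 14 assembly genes rose. Those with the smallest p were Ndufaf6 (0.50 ± 0.09), Tmem186 (0.31 ± 0.07) and Ndufaf2 (0.56 ± 0.13), whose proteins act on assembly intermediates. Ndufaf4, named after its values were seen, had the largest difference of the 38 (0.89 ± 0.27, limma adjusted p = 0.0147). It also varied with run: at 1 week its diet effect differed between runs by 1.71 (limma adjusted p = 0.00153). On 20% protein, rats 77 to 79 minus rats 51 to 53 gave -1.16 (limma adjusted p = 0.00108). Complex V gave 1 of 3, Atpaf2, a chaperone of the alpha subunit of F1 (0.23 ± 0.07), and complex II 0 of 3. In rats 22 to 32 alone 8 assembly genes were called and in rats 59 to 73 alone 5, each time higher on 5%.

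Routes by which electrons reach the chain outside complexes I and II also held called genes. Gpd2, the mitochondrial glycerol-3-phosphate dehydrogenase that feeds electrons from cytosolic NADH to coenzyme Q, rose by 1.58 ± 0.17 at 4 weeks (limma adjusted p = 1.86e-07) and by 0.74 ± 0.17 at 1 week (0.0108). Dhodh, of pyrimidine synthesis, rose by 0.34 ± 0.10 at 4 weeks, and Etfb, of the flavoprotein that collects electrons from fatty acid oxidation, fell by 0.35 ± 0.08. These were 3 of the 7 listed genes measured, where 25.8% of all genes were called. The 7 included Hccs, which attaches heme to cytochrome c and is not an entry route. In a list of coenzyme Q genes 3 of 12 rose and 2 fell at 4 weeks, among them Coq8b (0.41 ± 0.09) and Coq4 (0.44 ± 0.11) upward and Coq10a (-0.48 ± 0.15) downward. The 2 that fell encode proteins that bind coenzyme Q and are not enzymes of its synthesis. At 1 week the methyltransferase gene Coq3 fell by 0.35 ± 0.08 (adjusted p = 0.0111). Of 65 mitochondrial ribosomal protein genes 28 rose and 0 fell at 4 weeks, and of 10 tricarboxylic acid cycle genes, succinate dehydrogenase aside, 4 rose and 0 fell, where 13.4% of all genes rose and 12.4% fell.

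**Figure D3:**
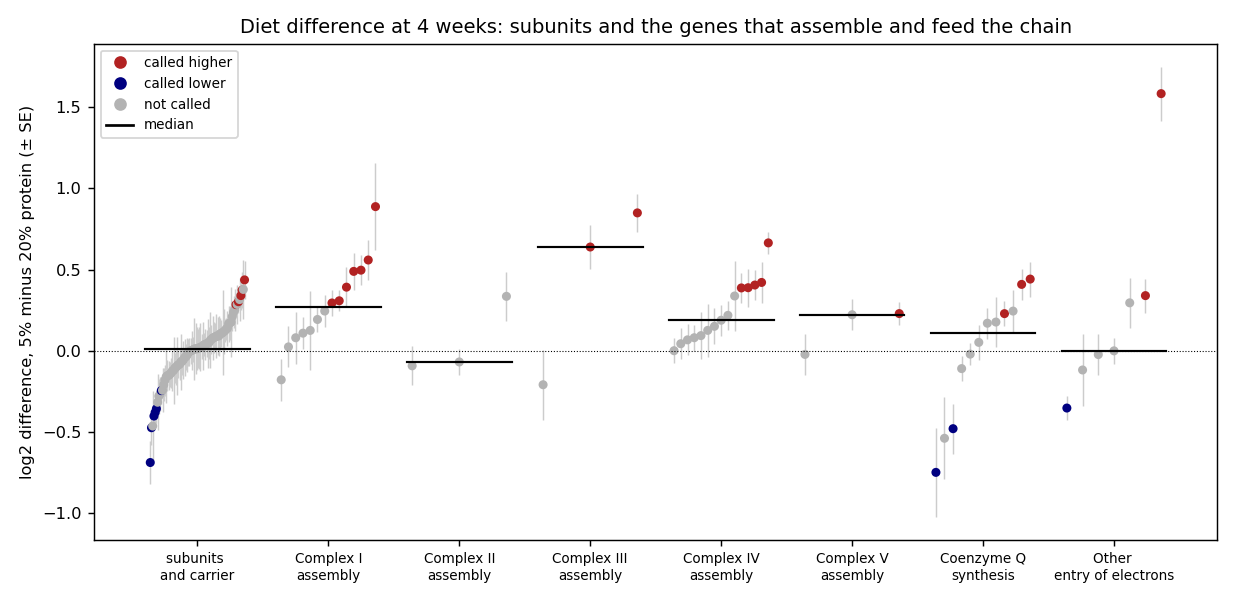
Log2 difference between diets at 4 weeks (points, SE bars) for the subunit genes with Cycs and for lists of assembly, coenzyme Q and electron entry genes, with medians as black lines. The subunits centre on 0.01 with calls on both sides, 15 of 38 assembly genes were called, all upward, and Gpd2 is the point at 1.58.

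The difference between the 4 week and the 1 week diet effect was called in 1 of the 91 genes, Ndufa1, beside 5.75% of all genes, 3.54% higher and 2.2% lower. At 1 week Ndufa1 differed by -0.04 (mean 8.05 on 20% and 8.01 on 5%), and the change in effect was -0.65 ± 0.18 (limma adjusted p = 0.0392). The -0.04 pools runs whose diet effects differed by -0.85 (rats 74 to 79 minus rats 49 to 54, limma adjusted p = 0.00551). The diet by time call was lost with run as a covariate (-0.61, adjusted p = 0.108). It was also lost without any of 13 single rats, with adjusted p from 0.0582 to 0.0715: 5% rats 49, 50, 54 and 74 and 20% rats 51, 52 and 53 at 1 week, and 5% rats 23, 31 and 59 and 20% rats 67, 72 and 73 at 4 weeks. Among the assembly genes 5 were called for diet by time, all with a more positive difference at 4 weeks, as was Gpd2 (0.84). Bcs1l (0.70), Lyrm7 (0.64) and Ndufaf6 (0.48) were among them. Ndufaf7 went from -0.35 at 1 week to 0.39 at 4 weeks and Ecsit from -0.09 to 0.30, neither called at 1 week.

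Between 1 and 4 weeks on the same diet, limma called 0 of the 91 genes, beside 2.52% of all genes on 20% protein and 8.29% on 5%. At an unadjusted p below 0.05 there were 25 on 20% (23 of them lower at 4 weeks) and 14 on 5% (12 lower), beside 16.3% and 21.5% of all genes. The medians were -0.08 and -0.10, with 0.01 for all genes on either diet. On 20% protein, leaving out 20% rat 53 gave 6 calls and 5% rat 54 gave 3, all lower at 4 weeks; 5% rat 59 gave 2, and 20% rats 52 and 29 and 5% rat 26 gave 1 each. On 5% protein, leaving out 20% rat 29 gave 3, all lower, 5% rat 26 gave 2, and 5% rats 50, 54, 76, 22 and 59 and 20% rats 52, 53, 77, 79, 63 and 67 gave 1 each. Rats of the other diet enter through the shared spread. No run of rats held both weeks, so weeks on the diet and run cannot be told apart in these comparisons. The 20% rats of the 1 week runs also differed from each other, as given below.

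The near-zero median at 1 week did not hold inside either run of rats. Among rats 49 to 54, 15 of the 91 genes were higher on 5% protein and 0 lower, beside 7.57% of all genes called and 2.86% called higher, and the median was 0.15. Among rats 74 to 79, 0 were higher and 12 lower, beside 8.49% called and 4.45% called lower, and the median was -0.21. The run-to-run change of the diet effect was called in 18 genes, all downward in the later run (19.8%), where 7.29% of all genes were called and 2.53% in that direction. The median difference of effects was -0.35 over the 91 genes and -0.0004 over all genes, and 84 of 91 were negative.

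**Figure D4:**
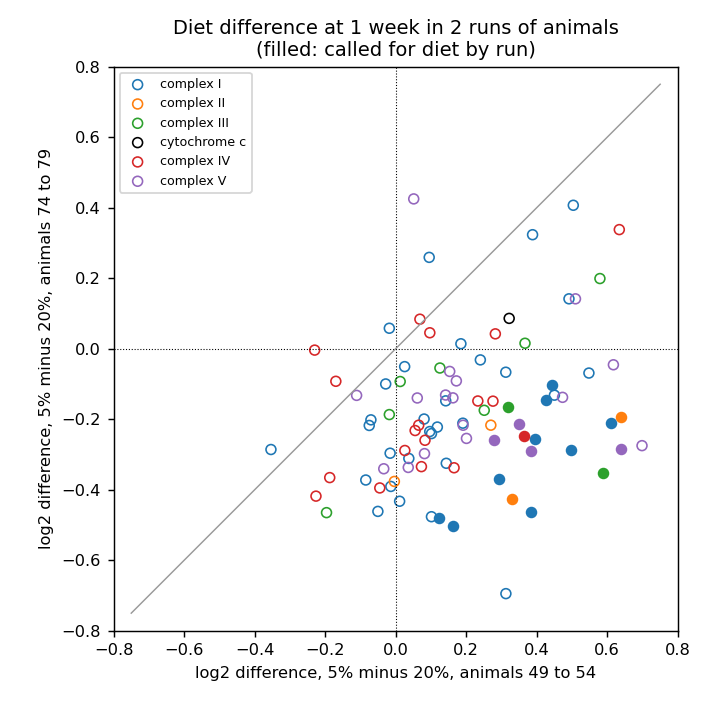
Diet difference at 1 week of each gene among rats 74 to 79 against that among rats 49 to 54 (log2, 5% minus 20%), coloured by complex. Filled points are the 18 genes called for the difference between runs; the grey line marks equal differences, and 84 of 91 points lie below it.

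By calls, the 20% rats were the ones that parted. Between rats 51 to 53 and rats 77 to 79, all on 20% protein for 1 week, 37 of 91 genes were higher in the later run and 0 lower (40.7%), beside 10.8% of all genes called and 4.3% in that direction. The 5% rats of the same runs gave 0 of 91 by limma (0.783% of all genes), with 10 at an unadjusted p below 0.05 (12.4% of all genes). By complex the 37 were 16 of 39 in complex I, 3 of 4 in complex II, 4 of 9 in complex III, 2 of 18 in complex IV and 12 of 20 in complex V. In complex V they included 4 of 5 genes of the catalytic F1 head and 7 of 11 of the stalk and membrane part. Ndufb8, a membrane-arm subunit of complex I named here after its values were seen, had the largest difference (0.94 ± 0.13, 1.92-fold by limma). In 66 of the 91 genes the 3 later rats lay above the 3 earlier ones, beside 12.1% of all genes.

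The level of the whole set in each rat shows the same split. It was taken as the median over the 91 genes of the log2 value minus the gene's mean over the 24 rats. Rats 51 to 53 lay between -0.125 and -0.0967 and rats 77 to 79 between 0.197 and 0.244. The 5% rats at 1 week ran from -0.0394 to 0.138, between the 20% runs. In complex III alone the medians of these 5% rats parted by run too. They ran from -0.133 to 0.117 in rats 49 to 54 and from 0.146 to 0.239 in rats 74 to 76. At 4 weeks the 20% rats ran from -0.223 to 0.065 and the 5% rats from -0.182 to 0.00366, so that these groups overlapped. The 20% rats parted by run at this time too, with rats 29 and 30 at -0.223 to -0.13 and rats 63 to 73 at -0.0402 to 0.065. On 5%, rats 22 to 32 ran from -0.182 to 0.00366 and rat 59 lay at -0.0081. Diets were unevenly spread over these runs, so the 4 week ranges mix run and diet. The same median over all genes stayed within -0.0356 and 0.0339 in every rat.

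**Figure D5:**
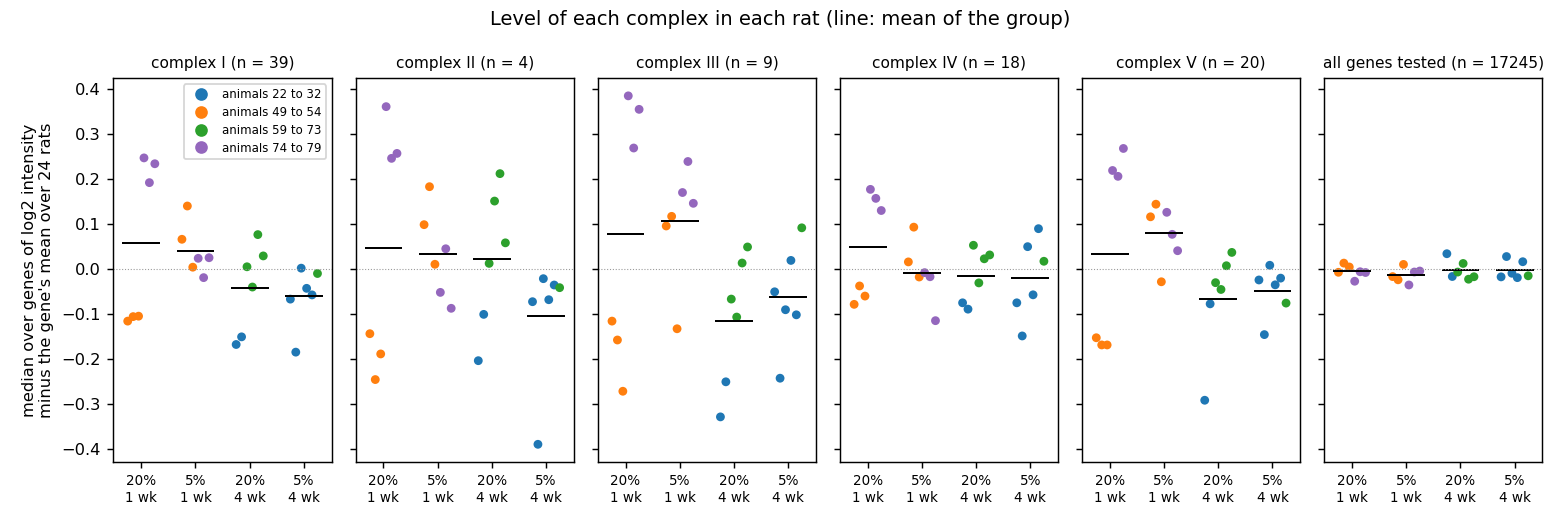
Level of each complex in each rat: the median over its genes of log2 intensity minus the gene's mean over 24 rats, with group means as lines and all genes as a panel of their own. The 20% rats at 1 week lie in separate clusters by run in every complex, from -0.272 to -0.116 and from 0.269 to 0.385 in complex III, while all genes stay within -0.0356 and 0.0339.

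Atp5po, part of the peripheral stalk that holds the ATP synthase head still, gave the smallest p for diet by run. Rats 51, 52 and 53 on 20% were at 9.78, 9.78 and 9.82, and rats 77, 78 and 79 at 10.59, 10.32 and 10.43. The 5% rats were at 10.42, 10.50 and 10.37 in the earlier run and at 10.24, 10.07 and 10.18 in the later one. The 5% rats were thus above their 20% run mates in 1 run and below them in the other, and the difference of effects was -0.92 ± 0.17 (limma adjusted p = 0.00226).

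Ndufa12, an accessory complex I subunit, was at 9.83, 9.76 and 9.90 in 20% rats 51 to 53 and at 10.29, 10.20 and 10.27 in rats 77 to 79. On 5% it was at 10.04, 10.05 and 9.89 and then at 9.83, 9.74 and 9.69. The runs did not overlap within either diet, and moved up on 20% and down on 5%. The difference of effects was -0.66 ± 0.13 (adjusted p = 0.00325 by limma).

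Sdhd, a membrane anchor of complex II, was at 10.10, 9.99 and 9.93 in rats 51 to 53 and at 10.59, 10.42 and 10.66 in rats 77 to 79. The 5% rats were at 10.26, 10.48 and 10.28 and at 10.06, 10.22 and 10.10. The order of the diets turned from run to run, with a difference of effects of -0.76 ± 0.16 (limma adjusted p = 0.00621).

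The other genes with the largest differences of effects were Ndufa1 (-0.85), Ndufa2 (-0.82) and the core gene Ndufs3 (-0.78) in complex I, Sdhb (-0.83) in complex II, and Uqcr10 (-0.94) and the core protein gene Uqcrc2 (-0.48) in complex III. Cox5b (-0.61) was the only one called in complex IV. In complex V the stalk genes Atp5pf (-0.68) and Atp5pb (-0.57) followed Atp5po. Of these, Uqcrc2 (limma adjusted p = 0.0485), Atp5pb (0.0422), Uqcr10 (0.0368) and Sdhb (0.0359) passed narrowly, and their calls were lost without 18, 12, 9 and 8 of the 24 rats in turn. That of Ndufs3 (0.029) was lost without 9 and that of Cox5b (0.021) without 4. Atp5po, Atp5pf, Sdhd, Ndufa1 and Ndufa2 kept theirs under all 35 alternatives. Of the whole set, 11 genes were called without 5% rat 50, without 20% rat 52 or without 20% rat 77, in place of 18.

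Without 20% rats 77 to 79 the 1 week comparison gave 16 genes higher and 0 lower on 5% protein. Without rats 51 to 53 it gave 0 higher and 9 lower. Both sets of rats were chosen after their high and low levels were seen. The directions thus followed from the choice. The shares of all genes called in these fits are not given here. Erythroid markers summed to 5218 to 7224 in rats 51 to 53 and to 7632 to 11540 in rats 77 to 79, with 0 of 5 called by limma between them. Kupffer cell and macrophage sums overlapped (4084 to 5345 and 4399 to 5725). Hepatocyte sums were 52990 to 55830 and 54390 to 57600. Cholangiocyte sums did not overlap (261.2 to 278.9 and 304.2 to 518.3), with 1 of 4 markers higher in the later rats (Epcam, 1.47), and 1 of 3 endothelial markers was higher (Stab2, 0.516), with sums of 2576 to 2639 and 2568 to 2768. Mitochondrial ribosomal protein genes gave 3 higher and 5 lower of 65 between the same rats, and assembly genes 2 higher and 5 lower of 38. Of all genes 4.3% were higher and 6.53% lower between these rats. On the sample plate, 20% rats 51 to 53 all lay in row D and rats 77 to 79 all in row H. Plate row and run thus cannot be told apart between them. What else set the runs apart is not given in the labels, and its part in these differences was not tested.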

How the data were processed

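The authors deposited intensity values per probe set after RMA, a method that corrects background, normalizes by quantiles and summarises probes, per the submitters' processing notes, which give it no version. The deposited values are unlogged, as their range of 3.27 to 15793 shows, and from them log2 values were taken here. Of 29214 probe sets, 18644 paired with 1 symbol (962 with several and 9608 with none were left out), which gave 17245 genes at 1 probe set each.

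The 4 group means, and separately the 8 means of group and run, were fitted with limma 3.58.1 (lmFit, eBayes) in R 4.3.3 on all 24 arrays, with 20 and 16 residual degrees of freedom. Tests were two-sided, with Benjamini-Hochberg adjustment over all genes. Arrays carry no depth, and their number limits the precision; RMA values carry no detection call.

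The members and lists were chosen with earlier results of these data known. Genes were named by rule: every member called for diet or diet by time, the extremes of each complex, isoforms, up to 3 genes per complex for diet by run, and up to 3 called genes per related list. Alternatives were other scalings, offsets, filters, variance models, blocks, and each rat left out. The analysis was tested on simulated data. Protein sequences were not used here.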

Additional observations from a re-analysis of the deposited data

Results flagged for a closer look

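In groups of 6 rats the lowest or highest value was compared with its nearest neighbour, as a share of the range, and 8 of 72 groups tested passed Dixon's critical value. Chance passes about 1 in 20 groups, and groups of the same rats are not independent. On 5% protein at 4 weeks rat 23 was far below the others in Ndufa4 (11.73), in Sdhd (9.627), in the median of all 91 genes (-0.182), in that of complex I (-0.185) and in that of complex II (-0.39). On 20% protein at 4 weeks rat 29 was far below the others in Cycs (11.04), which is cytochrome c at -0.53 after centring, and in the median of complex V (-0.292).

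The diet effect on Ndufa1 differed between 4 weeks and 1 week by -0.648. The diet effect at 1 week differed between the runs of animal numbers in 18 of the 91 genes. Both differences were tested with limma.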

How the results depend on the processing

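No paired analysis was possible because no rat number is found in more than 1 group. Counts of the 91 genes are given as all calls, with the reported count first. Between diets at 1 week, 2 became 1 with only the groups compared, 0 with plate row as a random block, 15 and 12 in rats 49 to 54 and 74 to 79 alone, and 16 and 9 without 20% rats 77 to 79 or 51 to 53 (chosen after seeing the data). At 4 weeks, 13 became 8 and 5 in rats 22 to 32 and 59 to 73 alone. For diet by run, 18 became 31 with an offset of 16 and 41 with array weights. For diet by time, 1 became 2 with quantile normalization, 3 with array weights, and 9 and 6 without 20% rats 77 to 79 or 51 to 53. Over time on 20% protein, 0 became 2 with quantile normalization, 1 without the dimmest 33.3% of genes, 4 with array weights, 1 with only the groups compared, and 3 and 24 without rats 77 to 79 or 51 to 53. On 5% protein, 0 became 4, 1, 2, 5, 4 and 1 with quantile normalization, the offset, the dimmest genes left out, array weights, only the groups compared and plate row. Between runs on 5% protein at 1 week, 0 became 3 with array weights. Assembly genes at 1 week went from 1 to 2 in each run alone and to 4 without 20% rats 77 to 79, and at 4 weeks from 15 to 8 and 5 in the runs alone.

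With each rat left out in turn the counts ran from 0 to 3 (diets, 1 week), 11 to 16 (4 weeks), 0 to 1 (diet by time), 11 to 26 (diet by run), 28 to 41 (runs on 20%), 0 to 0 (runs on 5%), 0 to 6 (time on 20%) and 0 to 3 (time on 5%), and for assembly genes from 1 to 2 and 13 to 17. Of the single-gene results 2155 kept their side of the threshold and direction, 140 lost and 32 gained a call, 34 moved, and no call reversed. The cause of these changes was not tested. Runs alone could not be fitted for diet by time, since no run holds both weeks. The array gives no detection limit, so the dim copies and isoforms may lie at background.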
